A study of Anser cygnoides with 4 samples.

Results

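Cells that carried the satellite cell gene PAX7 were compared between the E15 and E18 libraries of embryonic goose leg muscle. A barcode, the tag of 1 droplet, was counted as such a cell when it held at least 2 UMIs (unique molecular identifiers, each standing for 1 captured RNA molecule) of PAX7, none of MYOG and none of PTPRC. It also had to hold 300 to 6500 genes and 1000 to 50000 UMIs. The cells were thus chosen by measured counts of PAX7, MYOG and PTPRC, and the levels of these genes are no finding. The rule found 2696 cells at E15 and 3153 cells at E18, or 5849 of the 22685 barcodes within these limits in both libraries and of the 50646 barcodes of the whole series. Cells without any UMI of the 6 cycle genes MKI67, TOP2A, CDK1, CCNB2, PLK1 and TPX2 are called non-cycling here, and 1292 cells at E15 and 1194 cells at E18 met this condition.

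Satellite cells are the muscle stem cells that lie between the muscle fibre and its basement membrane, and PAX7 is the transcription factor that marks them. In the embryo, PAX7 cells divide, and those that take up MYOD1 and then MYOG leave the cycle and fuse into fibres. Notch signalling holds PAX7 cells back from differentiation, while ligands and matrix proteins of the surrounding connective tissue, made largely by fibro-adipogenic progenitors (FAPs), shape where and when muscle forms.

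The study sampled Zhedong White goose (Anser cygnoides) at 4 embryonic ages, with 1 droplet library for each day: E13, E15, E18 and E23. All 4 groups were untreated female embryos and differed in age alone, as far as the labels say. Leg muscle of several embryos was pooled within a stage, and the labels and the methods give different numbers of embryos. The cells were enriched by differential plating, which removes cells that attach fast, and were frozen and thawed before capture, so the shares below are shares of plated and thawed cells. Sequencing providers are named for the series and not for each library, so provider and stage cannot be told apart. Because each stage is a single library, no difference between stages could be tested, and intervals at the 95% level cover counting error only.

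Depth was close between the libraries. The E15 library held 134644847 UMIs and the E18 library 140557470 UMIs, of which the PAX7 cells held 29405231 and 38221911. The median PAX7 cell had 10144 UMIs and 3667 genes at E15, and 11004 UMIs and 3668 genes at E18. Mitochondrial genes took a median of 0.119% of a PAX7 cell's UMIs at E15 and 0.237% at E18, and no barcode exceeded 20%. The libraries shared 37 barcodes, none of them a PAX7 cell in both. No doublet caller was run, and counts without barcodes that held markers of another class are given in the closing section.

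PAX7 cells made up 23.5% (22.8 to 24.3%) of the E15 barcodes and 28.1% (27.2 to 28.9%) of the E18 barcodes within the limits. This order depended on the depth and on the MYOG condition. After each barcode was thinned to 4000 UMIs, by drawing that many of its UMIs at random, the same rule found 22.1% at E15 and 19.2% at E18. With MYOG allowed, the shares were 51.9% and 42.5%. MYOG, the factor of differentiating myocytes, was detected in 3247 of 5943 PAX7 barcodes at E15 and in 1624 of 4777 at E18. It was also detected in 31.5% of 1246 barcodes at E15 and in 14.6% of 2508 at E18 with at least 5 UMIs of the FAP genes DCN, CDH11 and COL6A3 and none of PAX7 or PTPRC, a class that should lack it. The MYOG condition therefore met a higher level of MYOG outside myocytes at E15, and the part of this in the differences between the stages was not tested beyond the values without the condition.

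Counts were summed over the PAX7 cells of a library and scaled to a total of 1000000 (counts per this total, CPM). Among 6827 genes whose mean of both sums reached 20 CPM, 158 were at least 2-fold higher at E18 (2.31%) and 270 at least 2-fold lower (3.95%). The sums of both libraries were otherwise alike, with 84.5% of the genes within 1.5-fold and a median log2 ratio of -0.10. In non-cycling PAX7 cells, 206 of 6801 genes were at least 2-fold higher (3.03%) and 259 at least 2-fold lower (3.81%). 140 of the 158 higher genes and 214 of the 270 lower genes were also past 2-fold there in the same direction. The balance of higher and lower genes moved with the scaling. With the median ratio set to 0, 198 genes were higher and 229 lower in all PAX7 cells, and 275 and 214 in non-cycling ones. With edgeR's TMM factors the counts were 199 and 225, and 254 and 224. With MYOG allowed, 139 genes were higher and 217 lower in all PAX7 cells, of which 118 and 170 were among the 158 and 270, and 161 and 185 in non-cycling ones.

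**Figure D1:**
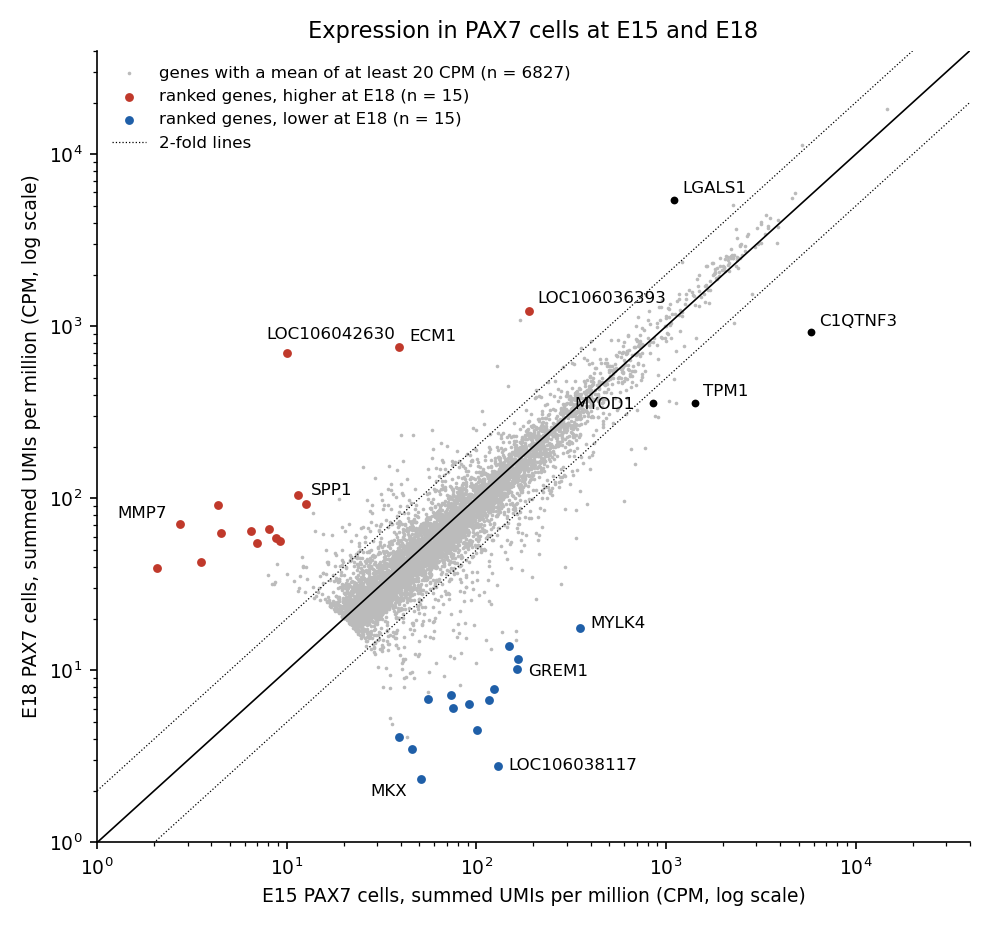
CPM of 6827 genes in PAX7 cells, with E15 on the horizontal axis and E18 on the vertical axis, both on log scales. The 15 ranked genes that were higher at E18 (red) lie well above the dotted 2-fold lines and the 15 that were lower (blue) well below them, while 84.5% of all genes lie within 1.5-fold of the solid line of equal level.

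The genes with the 15 highest and 15 lowest log2 ratios were ranked by taking, for each gene, the ratio nearer to 0 of all and of non-cycling PAX7 cells. The ranking chose these genes for their size, so their ratios describe them and support nothing further. All 30 were at least 2-fold different in the same direction both in non-cycling PAX7 cells without MYOD1 UMIs (238 cells at E15 and 460 at E18) and in those with 3 or more (801 and 460). Both groups are parts of the non-cycling cells whose ratios chose the genes, so this gives no separate support.

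Secreted and matrix proteins stood among the genes higher at E18. ECM1, which encodes an extracellular matrix glycoprotein, was at 39.2 CPM at E15 and 755 CPM at E18, a log2 ratio of 4.27 (4.18 to 4.35). At 4000 UMIs a cell, ECM1 was detected in 10.2% of PAX7 cells at E15 and in 75.6% at E18, so the difference was spread over most of the cells. In FAP-marker barcodes (at least 5 UMIs of DCN, CDH11 and COL6A3 together, with PAX7, MYOG, MYOD1 and PTPRC at 0) its level was 56.2 and 187 CPM, and in myocyte barcodes (at least 2 UMIs of MYOG and none of PAX7) 11.9 and 92.5 CPM. ECM1 was thus higher at E18 in all 3 of these classes. Immune barcodes (at least 2 UMIs of PTPRC, with PAX7 and MYOG at 0) held 637 and 561 CPM, from only 17 barcodes at E15 and 96 at E18.

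MMP7, the secreted matrix protease matrilysin, was at 2.72 CPM at E15 and 70.9 CPM at E18 (log2 ratio 4.70). It was detected in few cells at both stages, 0.317% of thinned PAX7 cells at E15 and 6.49% at E18. At E18 it was found in 9.00% of the cells without a MYOD1 UMI and in 3.38% of those with one. DCN, a FAP gene, was detected in 59.2% of the 191 thinned E18 cells with MMP7 and in 37.4% of those without it. Without likely doublets by markers, which left 646 cells at E15 and 892 at E18, the log2 ratio of MMP7 was 2.50. With a limit of 20 UMIs for FAP markers, added after seeing the data, it was 4.57, in 2443 and 2799 cells. The part of doublets in this difference was not tested. FAP-marker barcodes held 16.8 and 19.2 CPM of MMP7 (log2 ratio 0.19). Immune barcodes held 89.5 CPM at E15, from 9 UMIs, and 206 CPM at E18. CSF3, the cytokine G-CSF, was at 4.52 and 62.6 CPM (log2 ratio 3.79), and was higher still in FAP-marker barcodes, at 84.6 and 252 CPM.

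SPP1, the secreted phosphoprotein osteopontin, was at 11.5 CPM at E15 and 105 CPM at E18 (log2 ratio 3.19). Immune barcodes held 2795 and 4793 CPM of SPP1, far above the PAX7 cells. The 5 immune markers PTPRC, FCER1G, CSF1R, SPI1 and LCP1 together came to 2.21 CPM in PAX7 cells at E15 and 2.36 CPM at E18, with PTPRC at 0 by the rule. ANXA1, a phospholipid-binding protein that dampens inflammation in mammals, was at 8.09 and 66.4 CPM (log2 ratio 3.04), below the 93.3 and 204 CPM of FAP-marker barcodes.

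A pair of genes without a symbol separated E18 cells from each other. LOC106042630, for which no annotation was used, had the largest ratio of all, with 10.0 CPM at E15 and 699 CPM at E18 (log2 ratio 6.12, 5.96 to 6.29). It was detected in 0.871% of thinned PAX7 cells at E15 and in 20.2% at E18, where the positive cells held a mean of 16.8 UMIs of it. LOC106036393, annotated as avidin-like after the biotin-binding egg-white protein, was at 189 and 1226 CPM (log2 ratio 2.70) and in 7.17% and 35.6% of the thinned cells. These were high levels in a minority of the cells. Immune barcodes, only 17 at E15 and 96 at E18, held 666 and 282 CPM of LOC106042630. They held 1243 and 2896 CPM of LOC106036393, so neither gene was particular to PAX7 cells.

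Both genes tended to be found in the same E18 cells. LOC106036393 was detected in 65.8% (61.96 to 69.5%) of the 629 thinned cells with LOC106042630 and in 27.3% (25.5 to 29.1%) of the 2437 without it. CXCL14, a chemokine, was detected in 39.0% and 21.2% of the same cells. MYOD1 was detected in 39.4% and 51.8%, and the proliferation gene MKI67 in 18.6% and 30.2%. Cells with LOC106042630 therefore held CXCL14 more often, and MYOD1 and MKI67 less often, than the other E18 cells. These are descriptions within 1 library, and LOC106042630 was chosen for its ratio between the stages.

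GLUL, which encodes glutamine synthetase, was at 3.54 CPM at E15 and 42.4 CPM at E18 (log2 ratio 3.58) and stayed at 14.3 CPM or less in FAP-marker barcodes and at 6.30 CPM or less in myocyte barcodes. At E18 it was detected in 17.5% of thinned PAX7 cells without MYOD1 and in 8.48% of those with it. LINGO2, a leucine-rich repeat membrane protein, was at 8.77 and 59.1 CPM (log2 ratio 2.75), against at most 6.95 CPM in FAP-marker and 5.68 CPM in myocyte barcodes. GLUL and LINGO2 were thus low in both other classes at both stages. In FAP-marker barcodes they were nevertheless higher at E18 too, with log2 ratios of 1.89 and 1.07. In myocyte barcodes the ratios were 0.52 and -0.11.

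Some ranked genes differed alike in PAX7 cells, FAP-marker barcodes and myocyte barcodes. TTLL13, of the tubulin tyrosine ligase-like family, was at 6.94 CPM at E15 and 54.9 CPM at E18 in PAX7 cells (log2 ratio 2.98), with ratios of 3.29 in FAP-marker and 2.89 in myocyte barcodes. LOC106035824, annotated as p300-like after the histone acetyltransferase, had ratios of 4.40, 4.31 and 4.68 in the same order. LOC136787810, an uncharacterized locus, had 4.24, 4.69 and 4.37. TTLL13 and LOC106035824 were at 41.2 and 44.9 CPM in the E13 PAX7 cells, so that E15 was the low library of the 4. The remaining higher genes were LOC106034136, LOC106034664 and LOC106034203, with log2 ratios of 3.31, 2.89 and 2.62 and E18 levels of 64.5, 93.3 and 56.6 CPM.

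**Figure D2:**
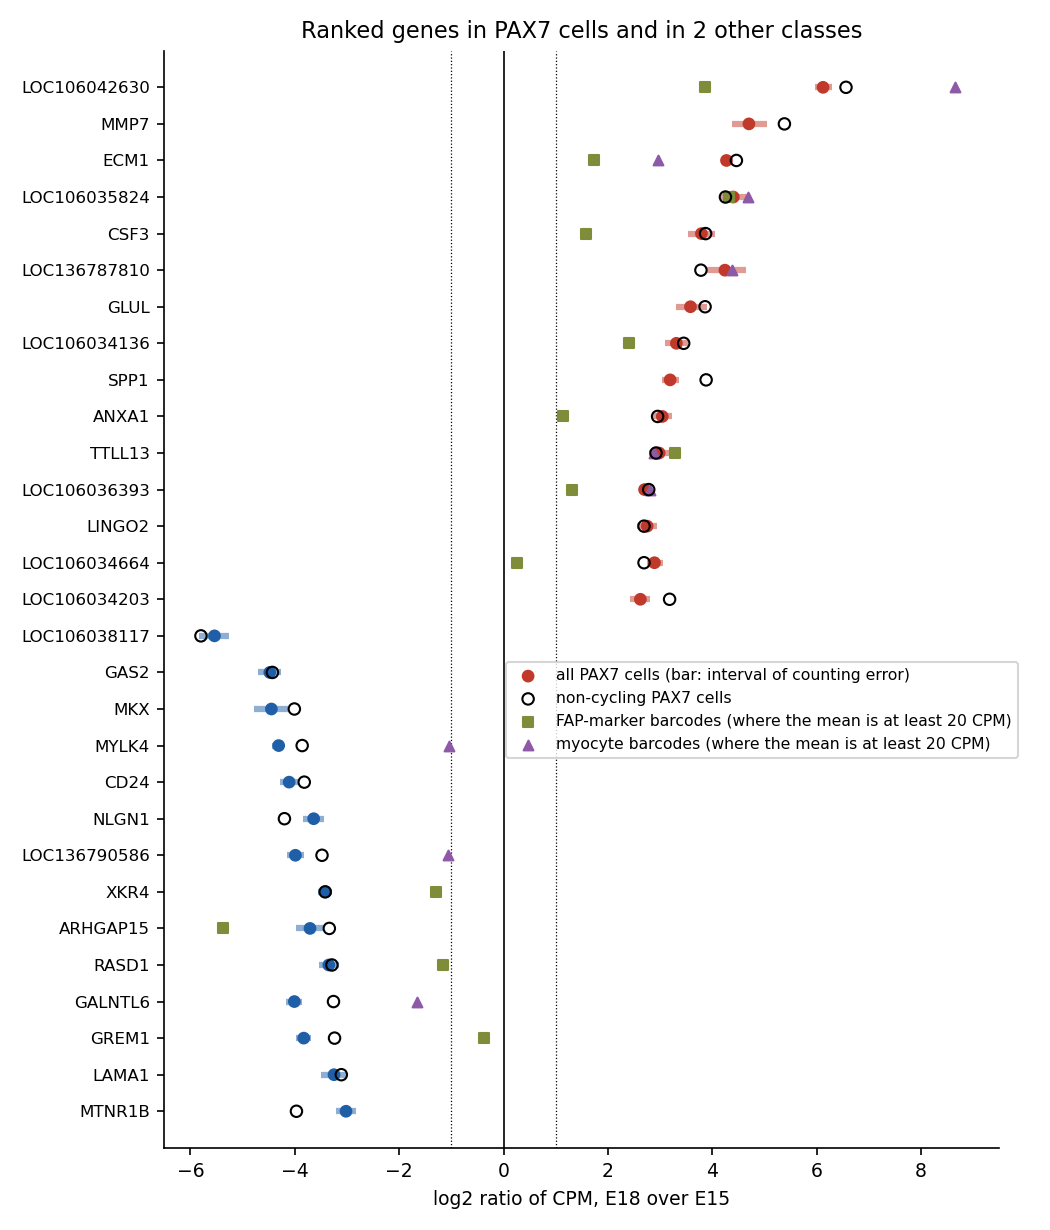
Log2 ratio of CPM, E18 over E15, of the genes ranked highest and lowest in all PAX7 cells (filled circles, bars for the 95% interval of counting error), in non-cycling PAX7 cells (open circles), and in FAP-marker (squares) and myocyte barcodes (triangles) where their mean reached 20 CPM. Open and filled circles lie on the same side of the dotted 2-fold lines for every gene shown, while the squares of LOC106034664 (0.26) and GREM1 (-0.37) lie within them.

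Among the genes lower at E18, the largest ratio belonged to LOC106038117, annotated as a cysteine-rich venom protein-like gene, a family of secreted proteins. It was at 131 CPM at E15 and 2.80 CPM at E18 (log2 ratio -5.54, -5.83 to -5.26). It was detected in 19.0% and 0.555% of the thinned PAX7 cells, and its level was at most 5.56 CPM in FAP-marker and myocyte barcodes. The E15 signal of this gene therefore lay in a minority of PAX7 cells and hardly outside them.

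MYLK4, of the myosin light chain kinase family, was at 351 CPM at E15 and 17.6 CPM at E18 (log2 ratio -4.31), and was detected in 55.8% and 6.65% of thinned PAX7 cells. In myocyte barcodes it was at 299 and 145 CPM, a smaller log2 ratio of -1.04. GAS2, an actin- and microtubule-binding protein first known from growth-arrested mouse fibroblasts, was at 101 and 4.53 CPM (log2 ratio -4.48). MYLK4 at E15 was near the myocyte level in PAX7 cells, whereas at E18 it was far below it. With MYOG allowed in the PAX7 cells, the log2 ratio of MYLK4 was -3.02.

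GREM1, a secreted antagonist of bone morphogenetic proteins, was at 165 CPM at E15 and 11.7 CPM at E18 (log2 ratio -3.83). It was detected in 33.5% and 3.72% of thinned PAX7 cells. In FAP-marker barcodes GREM1 was at 39.5 and 30.6 CPM, so that it was higher in PAX7 cells than in these barcodes at E15 and lower at E18. MKX, the homeobox factor Mohawk that acts in tendon development in mice, was at 50.9 and 2.33 CPM (log2 ratio -4.45). LAMA1, a laminin chain of early basement membranes, was at 39.0 and 4.11 CPM (log2 ratio -3.25).

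CD24, a small anchored surface glycoprotein, was at 116 CPM at E15 and 6.75 CPM at E18 (log2 ratio -4.11). NLGN1, an adhesion protein of synapses, was at 75.5 and 6.04 CPM (log2 ratio -3.64). Both were low in the other classes, with CD24 at most at 4.08 CPM and NLGN1 at most at 13.7 CPM in FAP-marker and myocyte barcodes. At these low levels both were lower at E18 there too. The log2 ratios in FAP-marker and myocyte barcodes were -1.20 and -1.50 for CD24, and -2.83 and -1.06 for NLGN1.

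Other lower genes were GALNTL6, of the N-acetylgalactosaminyltransferase family, with 164 and 10.2 CPM, and XKR4, of the XK-related membrane proteins, with 148 and 13.9 CPM. RASD1, a Ras-related protein induced by glucocorticoids, was at 73.2 and 7.20 CPM, and MTNR1B, a melatonin receptor, at 55.6 and 6.86 CPM. LOC136790586 was at 124 and 7.80 CPM. ARHGAP15, a GTPase-activating protein for Rac, was at 45.7 and 3.51 CPM in PAX7 cells (log2 ratio -3.71). It was lower by more in FAP-marker barcodes, at 139 and 3.35 CPM (log2 ratio -5.37), so its difference was not limited to PAX7 cells.

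Several abundant genes outside this ranking, named after their values were seen, moved by large amounts of RNA. LGALS1, the secreted lectin galectin-1, was at 1104 CPM at E15 and 5448 CPM at E18 (log2 ratio 2.30), and FAP-marker barcodes held 5124 and 7615 CPM. C1QTNF3, a secreted C1q-related protein, was at 5787 and 927 CPM (log2 ratio -2.64). C1QTNF3 was still detected in 79.3% of thinned PAX7 cells at E18, against 98.5% at E15, but the positive cells held a mean of 5.29 UMIs in place of 24.6. FAP-marker barcodes held at most 116 CPM of C1QTNF3 and myocyte barcodes at most 130 CPM. The difference in C1QTNF3 was thus one of level in cells that mostly kept the gene.

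Further genes of this kind were higher at E18. CTSL, the lysosomal protease cathepsin L, was at 128 and 586 CPM (log2 ratio 2.20). MMP2, a secreted gelatinase, was at 41.0 and 164 CPM (log2 ratio 2.00). EGFR, the receptor of epidermal growth factor, was at 25.1 and 152 CPM (log2 ratio 2.60). A chemokine, the C-C motif chemokine 4-like gene LOC106041042, was at 169 and 1084 CPM (log2 ratio 2.68), while FAP-marker barcodes held 2148 and 1834 CPM. LOC106041042 was detected in 93.7% of the 317 thinned E18 cells with CSF3 and in 55.1% of the 2749 without.

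The satellite cell and early myogenic genes were lower at E18 on balance. Of 17 listed genes that reached a mean of 20 CPM, 4 were at least 2-fold lower and none was 2-fold higher. The shares of all genes were 3.95% and 2.31%. The median log2 ratio of the list was -0.57 beside -0.10. In non-cycling PAX7 cells 3 of the 17 were at least 2-fold lower and none higher, beside 3.81% and 3.03% of all genes. The median of the list was -0.43 there, beside -0.13. This and the other lists were chosen with earlier results of these data known. MYOD1, which commits cells to the muscle lineage, was at 859 CPM at E15 and 358 CPM at E18 (log2 ratio -1.26). CALCR, the calcitonin receptor that holds satellite cells quiescent in mice, was at 119 and 24.4 CPM (log2 ratio -2.28). MEGF10, a membrane protein that regulates satellite cell division in mice, was at 214 and 60.9 CPM (log2 ratio -1.81), and EYA1, a transcriptional cofactor, at 250 and 115 CPM (log2 ratio -1.12). Myocyte barcodes held 1466 and 1304 CPM of MYOD1, 119 and 104 CPM of CALCR, and 410 and 337 CPM of MEGF10. These genes were thus not limited to PAX7 cells. CALCR was detected in 26.4% of thinned PAX7 cells with MYOD1 and 18.2% of those without at E15, and in 11.5% and 3.66% at E18.

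Other genes of the lineage lay within 2-fold. MYF5, the early myogenic factor, was at 191 and 148 CPM, MYF6 at 130 and 90.2 CPM, and PAX3, the paralog of PAX7 that acts in limb muscle precursors, at 64.6 and 45.7 CPM. MET, the receptor of hepatocyte growth factor, was at 31.8 and 35.8 CPM. PAX7 itself, which the rule used, was at 750 and 528 CPM, with a median of 7 UMIs a cell at E15 and 5 at E18. Of 7 contractile genes, TPM1 (1417 and 360 CPM) and the cardiac actin ACTC1 (179 and 78.0 CPM) were at least 2-fold lower, and none was 2-fold higher. Among all genes, 3.95% were at least 2-fold lower and 2.31% higher. In non-cycling cells the log2 ratio of TPM1 was -1.99, close to its -1.98 in all PAX7 cells, whereas that of ACTC1 was -0.51.

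The share of PAX7 cells without MYOD1 differed between the stages. At 4000 UMIs a cell, 26.5% (24.8 to 28.3%) of 2525 cells at E15 and 50.5% (48.7 to 52.3%) of 3066 cells at E18 held no MYOD1 UMI. Cells with 3 or more MYOD1 UMIs were 46.7% and 21.8%, and cells with neither MYOD1 nor MYF5 were 14.7% and 32.7%. Cells with MYF5 and no MYOD1 were 11.8% and 17.9%. For comparison, E13 had 22.4% and E23 54.4% of cells without MYOD1, so that E13 and E15 stood on one side and E18 and E23 on the other. In myocyte barcodes MYOD1 was detected in 94.8% at E15 and 94.2% at E18.

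**Figure D3:**
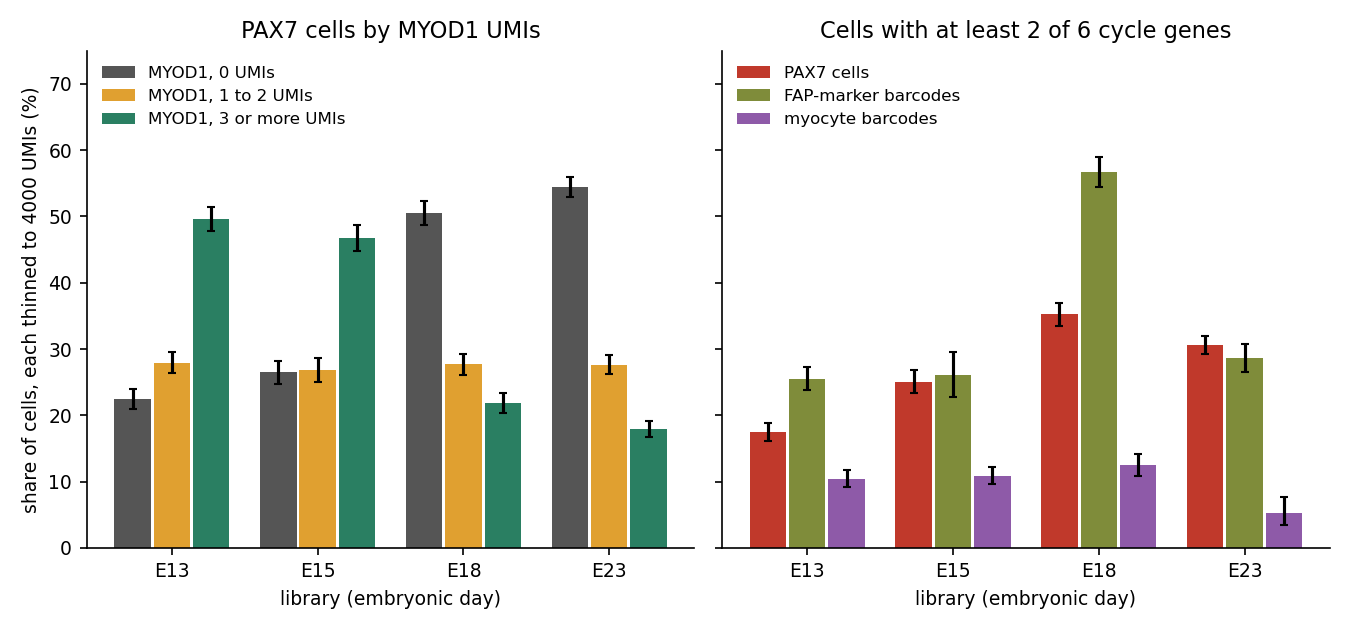
Left, the share of PAX7 cells with 0, 1 to 2, or 3 or more MYOD1 UMIs in each library, with every cell thinned to 4000 UMIs. Right, the share of PAX7 cells, FAP-marker barcodes and myocyte barcodes with at least 2 of the 6 cycle genes. Error bars are exact binomial 95% intervals of counting error, with 1 library a stage. Cells without MYOD1 make up 26.5% at E15 and 50.5% at E18, and cycling PAX7 cells 25.03% and 35.2%.

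Cycling cells were more frequent among PAX7 cells at E18. At least 2 of the 6 cycle genes were detected in 25.03% (23.4 to 26.8%) of thinned PAX7 cells at E15 and in 35.2% (33.5 to 36.9%) at E18. Without thinning the shares were 32.8% and 44.8%. FAP-marker barcodes differed in the same direction, with 26.1% and 56.8%, and myocyte barcodes held 10.8% and 12.5%. Within the PAX7 cells, cycling was about as frequent in cells without MYOD1 (25.4% at E15 and 34.7% at E18) as in cells with 3 or more MYOD1 UMIs (24.5% and 34.3%). The order of the stages was thus the same at either MYOD1 level.

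The genes of mitosis and of DNA synthesis did not move alike. Among all genes, 2.31% were at least 2-fold higher and 3.95% lower. All 25 genes of the G2/M list had a log2 ratio above 0 with a median of 0.60, and 4 were at least 2-fold higher (6 under either other scaling, with AURKA and KIF20A), among them CDC20 (32.7 and 91.2 CPM), the activator of the anaphase-promoting complex, and CENPA (25.8 and 59.5 CPM), the histone of centromeres. The list holds the genes that define cycling here. In non-cycling PAX7 cells those genes are at 0 by the rule. The floor of 3 counts gives each of them a log2 ratio of 0.06 there, which is also the median of the list. That median therefore does not show how the list moved in these cells. In non-cycling PAX7 cells 5 of its genes were at least 2-fold higher and 2 lower, beside 3.03% and 3.81% of all genes. The listed genes had to reach 20 CPM over all PAX7 cells only, while those shares are of genes that reached it in non-cycling cells. The 2 are thus not on the same footing. The 20 genes of the S phase list had a median of -0.12, near that of all genes, with none past 2-fold. In non-cycling PAX7 cells the median of this list was -0.32, beside -0.13 for all genes, again with none past 2-fold. In all PAX7 cells the replication licensing genes MCM3 (60.0 and 39.7 CPM) and MCM5 (70.3 and 45.8 CPM) were among the lowest of the list. Among D cyclins and cycle inhibitors, CDKN1C, the inhibitor p57, was at 16.4 and 41.7 CPM (log2 ratio 1.34), CDK6 at 259 and 121 CPM (log2 ratio -1.11), of which CDK6 lay within 2-fold with TMM factors. Of the 14 listed genes that reached a mean of 20 CPM, the others except GAS2 lay within 2-fold.

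Signalling lists differed in a few genes each, beside 3.95% of all genes at least 2-fold lower and 2.31% higher. Of 12 Notch genes, the ligand JAG1 alone was past 2-fold, at 96.8 CPM at E15 and 18.3 CPM at E18 (log2 ratio -2.40). The Notch targets HEY1 (463 and 261 CPM) and HES1 (73.3 and 102 CPM) lay within 2-fold on opposite sides. The receptors NOTCH1 and NOTCH2 had log2 ratios of -0.52 and -0.12. Of 27 genes of the TGF-beta and BMP list, 5 were at least 2-fold lower and 1 was higher, beside 3.95% and 2.31% of all genes. With TMM factors ID2 lay within 2-fold and 4 were lower. The ligand BMP4 was at 87.1 and 18.8 CPM (log2 ratio -2.21), the matrix protein THBS1 at 214 and 47.2 CPM (-2.18), and LTBP1, which binds latent TGF-beta, at 174 and 63.1 CPM (-1.47).

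The related LTBP2 went the other way, at 29.3 CPM at E15 and 132 CPM at E18 (log2 ratio 2.17). ID2, an inhibitor of basic helix-loop-helix factors, was at 703 and 327 CPM (-1.10), while ID1 and ID3 had log2 ratios of -0.29 and 0.50. BMP4 and its antagonist GREM1 were thus both lower at E18. In FAP-marker barcodes BMP4 was at 62.2 and 62.5 CPM. The type I and type II BMP receptors BMPR1A, BMPR1B and BMPR2 lay within 2-fold, with log2 ratios of -0.40, -0.12 and -0.44.

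Of 21 Wnt genes, 4 were at least 2-fold higher and 2 lower, beside 2.31% and 3.95% of all genes. The extracellular genes DKK1 (81.0 and 165 CPM), DKK3 (21.8 and 56.7 CPM) and FRZB (41.1 and 105 CPM) and the receptor FZD7 (45.0 and 94.2 CPM) were higher. DKK1 and FRZB encode inhibitors of Wnt signalling. The receptor FZD1 (94.4 and 32.7 CPM) and the ligand WNT9A (37.6 and 14.1 CPM) were lower. The transcription factors TCF7L2 and LEF1 lay within 2-fold, at log2 ratios of -0.29 and -0.20. Among genes that reached a mean of 20 CPM, the FGF list gave past 2-fold only the ligand FGF10 (12.04 and 45.5 CPM) and the IGF list only the binding protein IGFBP5 (35.6 and 86.9 CPM), both higher at E18. In non-cycling PAX7 cells 2 of the 15 FGF genes were at least 2-fold lower, among them DUSP6 (54.5 and 26.2 CPM), beside 3.81% of all genes. The FGF receptor FGFR4 was at 312 and 190 CPM, and SPRY1, a feedback inhibitor of FGF signalling, at 49.7 and 25.2 CPM.

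Of 31 matrix genes, ECM1 was higher and 4 were at least 2-fold lower, beside 2.31% and 3.95% of all genes. In non-cycling PAX7 cells the balance turned, with 3 of them at least 2-fold higher and 1 lower, beside 3.03% and 3.81%. The collagen IV chains COL4A1 (655 and 193 CPM, log2 ratio -1.76) and COL4A2 (274 and 125 CPM, -1.13) and the linker NID1 (123 and 57.0 CPM, -1.11) belong to the basement membrane, and SPON1 (37.1 and 15.5 CPM) is a secreted matrix protein. COL4A1 was detected in 84.7% and 48.4% of thinned PAX7 cells. In FAP-marker barcodes COL4A1 was lower too, with 735 and 136 CPM. The laminin chains LAMA2, LAMB1 and LAMC1 lay within 2-fold at -0.40, 0.10 and -0.57, as did the proteoglycan VCAN, which was at 328 and 606 CPM. In non-cycling PAX7 cells VCAN was past 2-fold, at 291 and 719 CPM (log2 ratio 1.31). With TMM factors NID1 lay within 2-fold.

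Of 31 measured adhesion and guidance genes, 11 were at least 2-fold lower and 2 higher, beside 3.95% and 2.31% of all genes. Their median log2 ratio was -0.54, against -0.10 for all genes. CADM2, a cell adhesion molecule, was at 136 CPM at E15 and 16.7 CPM at E18 (log2 ratio -3.03), while its relative CADM1 was at 15.5 and 61.9 CPM (1.99). The guidance ligand SLIT2 was at 79.9 and 18.5 CPM (-2.11), the semaphorin receptor PLXNA2 at 58.8 and 15.5 CPM (-1.92), and its co-receptor NRP1 at 71.8 and 33.2 CPM (-1.11).

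The integrin subunits ITGA1, ITGA4 and ITGA9 were lower with log2 ratios of -1.17, -1.12 and -1.18, whereas ITGA6 and ITGB1 lay at 0.01 and -0.40. The proteoglycan SDC1 was higher, at 25.3 and 67.9 CPM. CDH4, at -1.08, lay within 2-fold once the median ratio was set to 0. ROBO1 and ROBO2, the receptors of SLIT2, lay within 2-fold at 0.79 and 0.56, with the opposite sign to SLIT2.

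**Figure D4:**
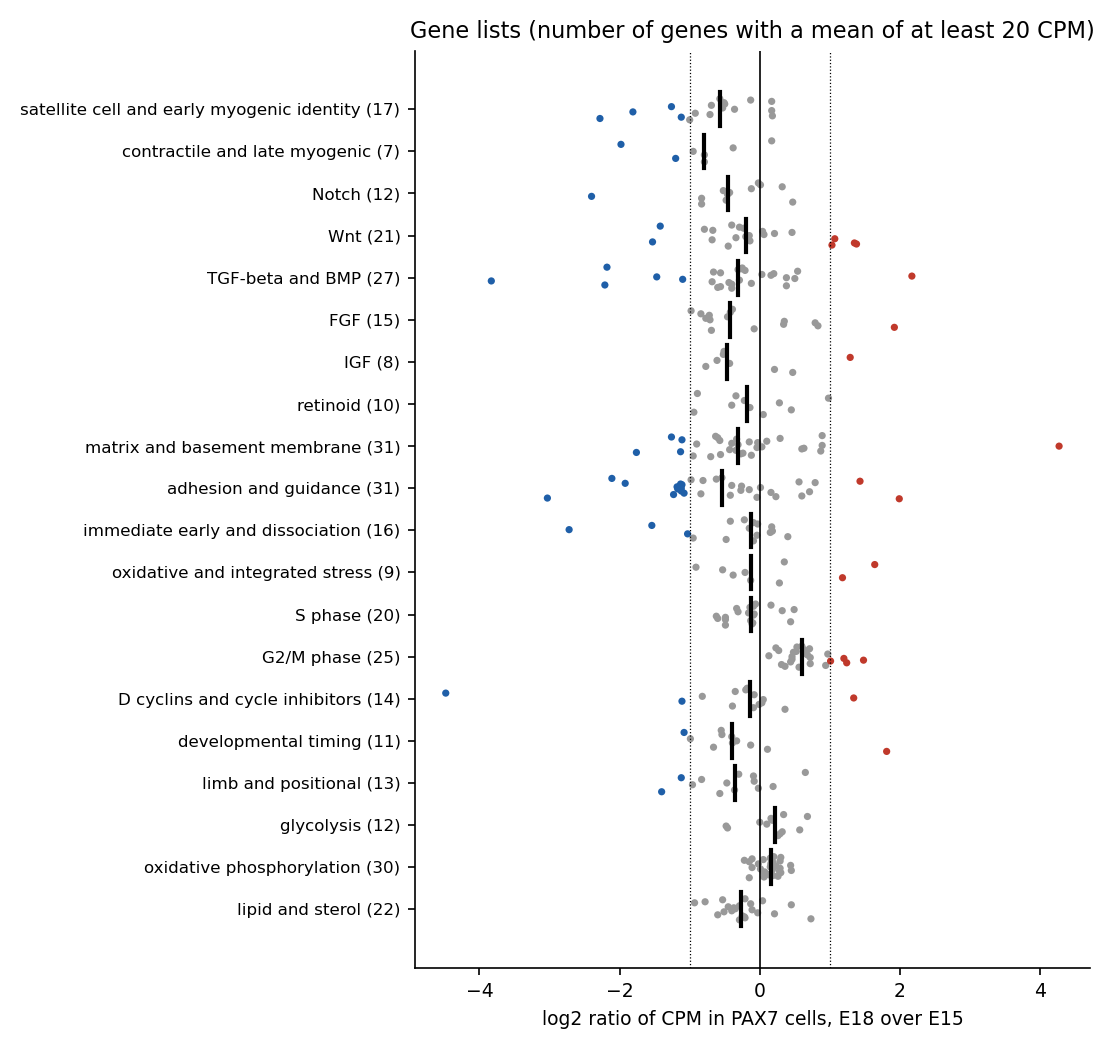
Log2 ratio of CPM, E18 over E15, of the genes of 20 lists in PAX7 cells, 1 point a gene that reached a mean of 20 CPM, in red where at least 2-fold higher and in blue where at least 2-fold lower. Black bars are medians, which run from -0.79 for 7 contractile genes to 0.60 for 25 G2/M genes, against -0.10 for all genes.

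In all PAX7 cells the metabolic lists stayed within 2-fold throughout, beside 2.31% of all genes higher and 3.95% lower. In non-cycling cells 1 lipid and sterol gene and 1 retinoid gene were at least 2-fold higher. The 30 genes of oxidative phosphorylation had a median log2 ratio of 0.16, with 24 above 0, and the 12 of glycolysis a median of 0.22, with PKM, the pyruvate kinase gene, the highest at 269 and 433 CPM. The 22 lipid and sterol genes had a median of -0.27. The 10 retinoid genes lay within 2-fold too, but RDH10, which oxidizes retinol, was at 36.0 and 71.3 CPM and passed 2-fold once the median ratio was set to 0.

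Genes of timing, position and stress differed singly, beside 3.95% of all genes at least 2-fold lower and 2.31% higher. Of 11 timing genes, the chromatin protein HMGA1 was at 19.5 and 68.4 CPM (log2 ratio 1.81) and SOX11 at 121 and 57.2 CPM (-1.08, within 2-fold under both other scalings). HMGA2 was at 178 and 192 CPM. Of 13 limb and positional genes, 2 were at least 2-fold lower, among them HOXA11 at 41.4 and 15.7 CPM, and none was 2-fold higher. Of 9 oxidative and integrated stress genes, SQSTM1, an autophagy receptor, was at 16.1 and 50.2 CPM, and DDIT4 at 31.3 and 71.1 CPM.

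The immediate early and dissociation list holds genes that respond to handling of the tissue. Of its 16 genes that reached a mean of 20 CPM, 3 were at least 2-fold lower, beside 3.95% of all genes. None was 2-fold higher, beside 2.31%. IER2 was at 83.2 CPM at E15 and 12.6 CPM at E18 (log2 ratio -2.72). KLF2 was at 63.7 and 21.9 CPM (-1.54), and HSPA2 at 358 and 175 CPM (-1.03, within 2-fold under both other scalings). IER2 was lower by similar amounts in FAP-marker barcodes (-2.76) and myocyte barcodes (-2.10). EGR1 and JUND had log2 ratios of -0.48 and 0.17. The part of tissue handling in the differences between the libraries was not tested.

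The same genes were read in the other classes. Among all genes measured in PAX7 cells and in FAP-marker barcodes, 2.05% were at least 2-fold higher at E18 in the FAP-marker barcodes and 2.01% lower. Of those measured in myocyte barcodes, 0.617% were higher and 0.582% lower there. Of the 158 genes higher at E18, 119 had a mean of at least 20 CPM in FAP-marker barcodes, where 38 were also at least 2-fold higher, 77 lay within 2-fold and 4 were at least 2-fold lower. In myocyte barcodes 77 were measured, with 19, 57 and 1. Of the 270 lower genes, 157 were measured in FAP-marker barcodes, with 45 lower, 109 within 2-fold and 3 higher, and 169 in myocyte barcodes, with 17, 151 and 1. The genes were chosen for the size of their difference in PAX7 cells, and no difference between classes was tested.

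Of all 5417 genes measured in the 3 classes, 0.258% were at least 2-fold higher in both FAP-marker and myocyte barcodes and 0.166% lower in both. 12 of the 64 higher genes measured in both other classes were at least 2-fold higher in both, among them ECM1, TTLL13, LOC106035824, LOC106036393, LOC106042630 and AUP1, a protein of lipid droplets. LOC106042630 rested there on 5 UMIs in the E15 myocyte barcodes. 6 of the 113 lower genes measured in both were lower in both, namely C1QTNF3, TIMP3, CCN2, SLIT2, LMCD1 and IER2. TIMP3, an inhibitor of matrix proteases, was at 773 CPM at E15 and 197 CPM at E18 in PAX7 cells, and CCN2, a matricellular protein, at 602 and 96.8 CPM.

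The neighbouring stages E13 and E23 were set beside the genes chosen for their E15 and E18 values. At E23, 90 of the 158 higher genes and 146 of the 270 lower genes were at least 2-fold from their E15 level in the same direction. At E13, 119 and 131 of them were at least 2-fold from the E18 level on the side of E15. Both conditions were met by 61 of the higher genes (38.6%) and 57 of the lower genes (21.1%). Each condition reuses the E15 or E18 value that chose the genes, and no share over all genes stands beside these counts. They therefore cannot show whether the differences last. Of the ranked genes, 11 of the 15 higher and all 15 lower ones met the first condition, and 12 of each met the second. ECM1, at 37.1 CPM at E13 and 627 CPM at E23, met both. LOC106042630 was at 73.2 CPM at E23 and so had come down from E18. LAMA1 and GREM1 were at 5.85 and 20.8 CPM at E13, so that E15 was their highest library. Each of these stages is again a single library.

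**Figure D5:**
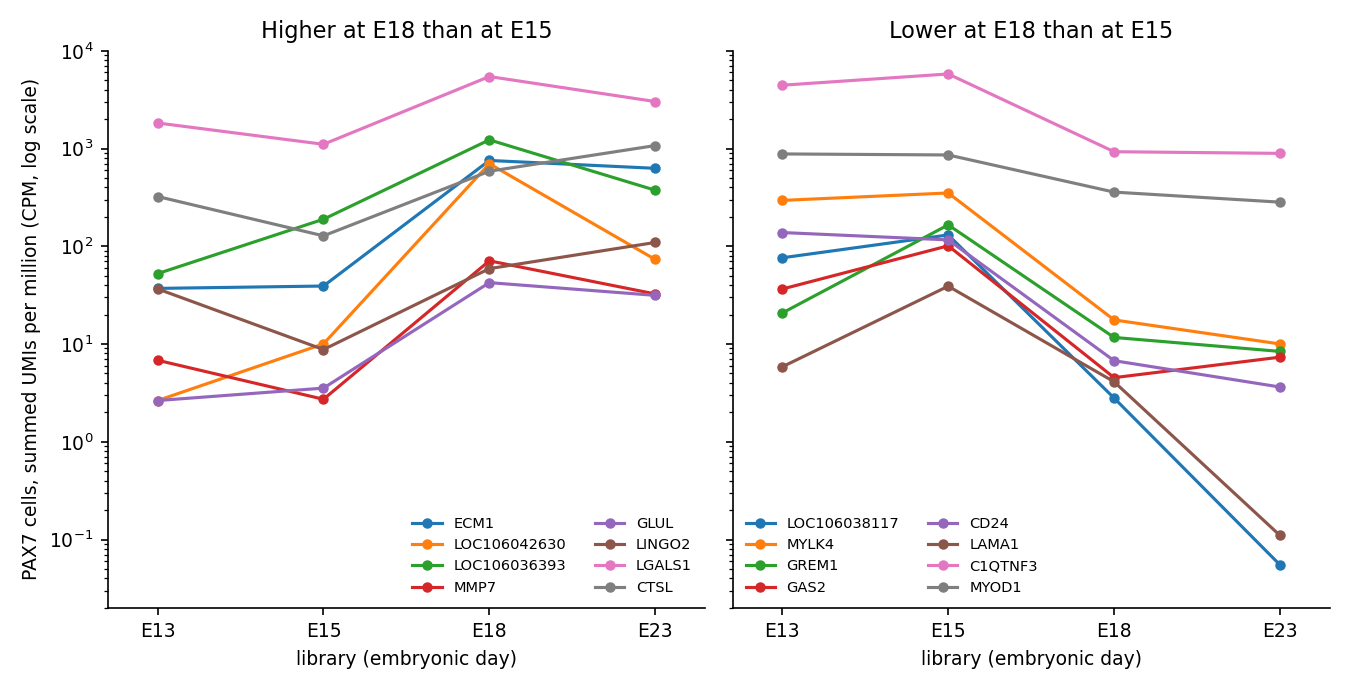
CPM of PAX7 cells (log scale) in the 4 libraries for genes higher at E18 than at E15 (left) and lower (right), 1 library a stage and no error bars. ECM1 runs from 37.1 at E13 to 627 at E23 with its step between E15 and E18, LOC106042630 peaks at E18 with 699, and LAMA1 peaks at E15 with 39.0.

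Markers of other cell types bear on the PAX7 sums. The 6 FAP markers in the files together came to 793 CPM in PAX7 cells at E15 and 737 CPM at E18. FAP-marker barcodes held 4445 and 3576 CPM of the same markers together, and 1251 and 1452 CPM of DCN alone. In PAX7 cells DCN was at 242 and 247 CPM and COL3A1 at 166 and 140 CPM. The 8 myocyte markers came to 271 and 168 CPM with MYOG at 0 by the rule. Endothelial markers came to 1.80 and 6.41 CPM, Schwann cell markers to 1.26 and 2.17 CPM, and cartilage markers to 59.5 and 38.5 CPM. FAP transcripts were thus present in the sum of all PAX7 cells at nearly the same level at both stages. In non-cycling PAX7 cells DCN was lower at E18, at 276 and 190 CPM (log2 ratio -0.54). The median log2 ratio of the 4 FAP markers that reached a mean of 20 CPM was -0.38 there. The part of FAP transcripts in the differences was not tested.

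At the edge of the rule, barcodes with 1 PAX7 UMI were near those just inside it in MYOD1, but not in all genes. At E15, 274 barcodes with 1 PAX7 UMI held 727 CPM of MYOD1 and 418 CPM of DCN, and 274 with 2 held 815 and 286 CPM. In the same order LGALS1 was at 2308 and 1169 CPM, COL3A1 at 381 and 205 CPM, and C1QTNF3 at 3893 and 5221 CPM. At E18, 610 barcodes with 1 PAX7 UMI held 307 CPM of MYOD1 and 807 CPM of ECM1, and 525 with 2 held 360 and 784 CPM. DCN was at 375 and 285 CPM in these E18 barcodes. Barcodes that met the other conditions and held no PAX7 UMI had 108 CPM of MYOD1 and 1114 CPM of DCN at E15. At E18, 2816 such barcodes had 50.0 CPM of MYOD1 and 1305 CPM of DCN. Their C1QTNF3 was at 489 CPM at E15 and 84.1 CPM at E18. MYOD1 and C1QTNF3 were thus lower at E18 in barcodes without PAX7 too.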

How the data were processed

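Female Zhedong White goose embryos gave 1 droplet library a stage (E13, E15, E18, E23). The authors counted UMIs per gene and barcode with Cell Ranger and deposited these raw counts for called cells. The submitters' notes give version 7.1.0 and the header of the matrices 9.0.0. All 25487 gene names match RefSeq symbols of a goose genome that differs from the one in the methods, so no coordinates or sequences are given. The titles write day 13 for every library, and stages were taken from the age field.

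PAX7 cells were found by their counts, without clustering. Members, gene lists and comparison classes were chosen with earlier results of these data known. Counts were summed per library and given as CPM. The log2 ratio of 2 sums took the exact interval of 2 Poisson counts at 95%, a sum under 3 counts being raised to 3, and shares took exact Clopper-Pearson intervals. UMIs were treated as independent molecules. Genes whose mean reached 20 CPM were ranked, and a size of 2-fold counted as different, without a test. Listed genes were those whose mean over all PAX7 cells reached 20 CPM, also where non-cycling cells were counted. The shares of all genes beside those counts rest on a mean of 20 CPM in non-cycling cells. The ranked genes are the 15 highest and the 15 lowest by the log2 ratio nearer to 0 of all and non-cycling PAX7 cells, without PAX7, MYOG, PTPRC and the 6 cycle genes. Some ranked and listed genes are not reported here. Detection shares were computed on cells thinned to 4000 UMIs, which left out 171 PAX7 cells at E15 and 87 at E18. The ratio code was tested on simulated data. Alternatives changed the scaling (median, or TMM of edgeR 4.0.16), the limits on PAX7, MYOG, depth and low values, and the treatment of likely doublets. Python 3.11.15, numpy 2.4.6, scipy 1.17.1 and R 4.3.3 were used.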

Additional observations from a re-analysis of the deposited data

Results flagged for a closer look

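Genes at least 2-fold higher in PAX7 cells and at least 2-fold lower in another class of the same libraries, or the reverse, are given here. No difference between classes was tested, since each stage is 1 library. The Wnt inhibitor FRZB had a log2 ratio, E18 over E15, of 1.35 in PAX7 cells (41.1 and 105 CPM) and of -1.17 in FAP-marker barcodes (135 and 59.8 CPM). The cytokine IL6 was at 11.5 and 29.1 CPM in PAX7 cells, a log2 ratio of 1.34, against -1.02 in FAP-marker barcodes (452 and 222 CPM) and -1.05 in myocyte barcodes (31.0 and 14.9 CPM). MICAL2, an actin-oxidizing enzyme, had 1.61 in PAX7 cells (27.6 and 84.0 CPM) and -1.35 in FAP-marker barcodes. LOC106030438 had 1.14 and -1.08 in the same order.

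Genes of the opposite kind were lower in PAX7 cells. NCALD, a neuronal calcium sensor, had a log2 ratio of -3.43 in PAX7 cells (162 and 15.0 CPM) and of 1.41 in myocyte barcodes (55.0 and 146 CPM). NEGR1, a neuronal adhesion protein, had -1.45 in PAX7 cells (153 and 55.9 CPM) and 1.34 in FAP-marker barcodes (65.6 and 166 CPM). ADAMTS9, a secreted protease, had -1.07 and 2.09, and GDPD5, a phosphodiesterase, -1.07 and 1.16 in the same order.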

How the results depend on the processing

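Each stage is 1 library, so embryo, library and stage cannot be told apart. No paired analysis was possible because the groups hold 1 library each. Under 11 alternatives a gene, all 330 values of the ranked genes stayed past 2-fold in the main direction, and none reversed. For 3 alternatives this was fixed in advance. The ranking already used the non-cycling ratios, and the median and TMM scalings shifted a value by only 0.10 and 0.11. Of the 330 values, 122 lay outside the counting interval of the main value. The largest change was that of LOC106034136, from 3.31 to 6.14 without likely doublets by markers, a step that left 646 cells at E15 and 892 at E18 and gave 143 higher and 313 lower genes. Without a limit on low values 1276 genes were higher and 1684 lower (1229 and 1147 in non-cycling cells), and at a mean of at least 50 CPM 81 and 151 (104 and 144). PAX7 cells were 25.9% at E15 and 33.5% at E18 with a limit of 1 PAX7 UMI, 21.1% and 23.4% with 3, 51.9% and 42.5% without the MYOG limit, and 22.1% and 19.2% after thinning to 4000 UMIs. Cycling shares were 40.0% and 50.1% with at least 1 of the 6 cycle genes, 32.8% and 44.8% without thinning, and 18.4% and 26.4% at 2000 UMIs. The thinned and MYOG-free shares turn the order of the stages, and the other settings keep it. A doublet alternative with a limit of 20 UMIs for FAP markers was added after seeing the data and gave 166 higher and 282 lower genes.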
